A study of Rattus norvegicus with 6 samples.

Results

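The genes described here carry growth hormone and prolactin signals in the liver: the receptors Ghr and Prlr, the transducers Jak2 and Stat5b, the repressor Bcl6, the feedback inhibitors Socs2 and Cish, and the insulin-like growth factor products Igf1, Igfals and Igfbp3. They were taken as every probe whose RefSeq accession maps to 1 of these 10 rat symbols, which gave 20 probes of the 61657 on the array and 10 of the 11405 named genes measured. Liver RNA came from 6 male Sprague-Dawley (Crl:CD(SD)) rats bought at 5 weeks of age. Of these, 3 received bromodichloromethane (BDCM, a by-product of chlorinating drinking water) at 200 mg/kg/day, and 3 received corn oil, the vehicle. Each rat had 1 one-colour Agilent array. The labels give 9 weeks of administration in one place and 28 days as the time of measurement in another, so the length of exposure is not settled.

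Growth hormone binds a preformed pair of receptor chains on the hepatocyte, which activates the tyrosine kinase JAK2 and, through it, the transcription factor STAT5B. STAT5B then drives the genes of the circulating growth factor IGF-I and of its own inhibitors, CIS (the product of Cish) and SOCS2, and opposes BCL6 at shared DNA sites. The prolactin receptor is a close relative that uses the same kinase and STAT5 proteins. In rats, males secrete growth hormone in separated pulses and females more evenly, this pattern sets the sex-dependent genes of the liver, and hepatic Prlr is much more abundant in females.

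STAT5 proteins bind the letters TTCNNNGAA, a palindrome that reads the same on both strands. The members' promoter windows, taken from RefSeq on the rat assembly GRCr8 and running from 250 bases before to 50 after a transcription start, were searched for these letters. The table held 10 windows for 9 of the genes, of which Prlr had 2. The letters were found in 2 of the 10 windows, against 8.87% of all 33469 windows, once in a Prlr window and 4 times in the Cish window. The stretches around these matches are shown because Prlr is the member that passed the test and Cish the one whose probes disagree; capitals mark each match. The Cish stretch is chr8:116850719-116850878 and the Prlr stretch chr2:60909463-60909511, both GRCr8 and plus strand.
Cish: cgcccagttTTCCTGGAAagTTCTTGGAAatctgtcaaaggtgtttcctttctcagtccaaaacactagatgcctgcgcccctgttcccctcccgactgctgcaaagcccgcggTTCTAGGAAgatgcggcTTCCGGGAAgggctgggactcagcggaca
Prlr: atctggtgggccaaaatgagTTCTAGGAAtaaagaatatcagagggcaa
The 4 Cish matches begin at -241, -230, -136 and -119 relative to the start, in 2 closely spaced pairs, and the Prlr match begins at -176. A match describes the letters and not binding of a factor in these livers.

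No array had a saturated non-control probe. The share of probes well above background was 61.3% to 63.9% on the corn oil arrays and 65.3% to 66.9% on the BDCM arrays. It was thus higher on every BDCM array than on any corn oil array, and the cause was not tested. All 20 probes of the members were well above background on all 6 arrays, so none was lost to the filter on dim signals. Values are given as relative signal, the processed fluorescence divided by the array's 75th percentile, and levels of different probes cannot be compared with each other. The 3 corn oil arrays and BDCM rat 1 shared slide 1, and BDCM rats 2 and 3 were on slide 2, which was scanned separately. The labels describe separate animals. The number of arrays limits the precision.

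Among the 10 genes, Prlr was strongly higher in BDCM livers, and it was the only one past the threshold, an adjusted p of 0.05 in limma over all 28995 features. The count of 1 in 10 lies beside 9.36% of all features called (2715, of which 1727 were higher, 5.96% of all features, and 988 lower), so the genes were not called more often than the background. None was called lower, but 4 had an unadjusted p under 0.05 in that direction, and 6 in either direction, where 27.5% of all features did. The median log2 fold change of the 10 was -0.28, against 0.0014 over all features. The groups did not overlap for 6 of the 10, with 2 higher and 4 lower in BDCM livers, and for 34.4% of all features. These figures depend on the scale. When arrays were instead scaled by spiked-in control transcripts, the median of all features moved to 0.48 and 44.8% of features were called, 97.6% of them higher rather than 63.6%. With median centring 74.2% of the calls were higher. On the spike-in scale Ghr, Stat5b, Cish, Igf1 and Igfals had values above 0, while Prlr, Jak2 and Socs2 stayed above 0 and Bcl6 and Igfbp3 below it. Log2 fold changes are BDCM minus corn oil, and their errors and 95% intervals come from limma.

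**Figure D1:**
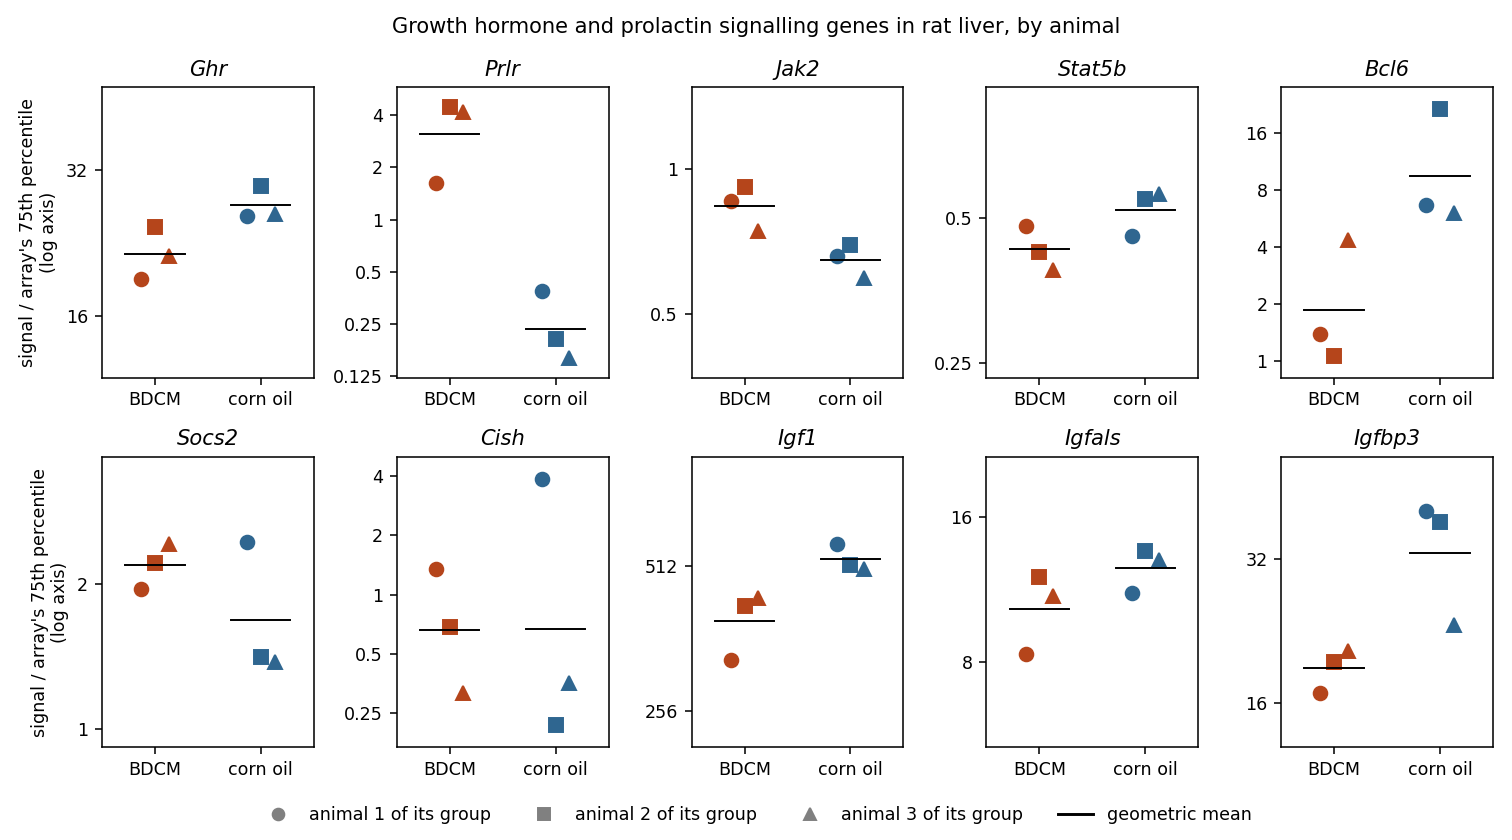
Relative signal of the probe that stands for each gene, by animal, on log axes whose range differs between panels; marks are animals, lines are geometric means of 3. The groups are clear of each other by a wide margin for Prlr, whereas for Stat5b, Socs2, Cish and Igfals they overlap.

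Prlr, the prolactin receptor gene, was 13.4-fold higher in BDCM livers. Its relative signal was 1.64, 4.47 and 4.17 in BDCM rats 1, 2 and 3, and 0.390, 0.206 and 0.159 in corn oil rats 1, 2 and 3. Every BDCM animal was above every corn oil animal, BDCM rat 1 stood lowest in its group, and the animals within a group differed by as much as 2.73-fold in BDCM livers and 2.45-fold in corn oil livers. The log2 fold change was 3.74 (SE 0.49, adjusted p = 0.015), and the 95% interval of the fold ran from 5.87 to 30.4. Prlr had 1 probe, matched to the transcript NM_012630, so the receptor's long and short forms cannot be told apart here.

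The direction held in all 20 alternative fits, but the call did not. Without BDCM rat 2 or corn oil rat 2 the log2 fold change was 3.48 and 3.65 and neither passed (adjusted p = 0.061 and 0.060), while the other 4 fits that left out 1 animal passed. On slide 1 alone, with BDCM rat 1 as the only treated animal, the value was 2.81 (adjusted p = 0.16), and with slide as a block, which gives the same estimate, the adjusted p was 0.073. The SD of Prlr about its group means was larger than that of most features, at the 97.3rd percentile.

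Prlr is also made by bile duct cells, so their markers are given beside it. Of 6 measured markers 1 was higher, beside 5.96% of all features. It was Epcam, an epithelial adhesion molecule, at 1.12 on the log2 scale (SE 0.18, adjusted p = 0.021). Epcam lost its call without BDCM rat 2, BDCM rat 3 or corn oil rat 2, and with slide as a block (adjusted p = 0.12). The keratins Krt7 and Krt19, also markers of the list, were at 0.12 (SE 0.14) and 0.16 (SE 0.24) and did not pass. Krt7 was dim, with relative signals from 0.0369 to 0.0532 over the 6 arrays, so its value says little. The summed relative signal of the 6 was 2.61 to 3.92 in BDCM livers and 1.86 to 1.94 in corn oil livers, and Epcam alone made up 1.94 to 2.48 in BDCM livers and 0.817 to 1.197 in corn oil livers. The other 5 markers lay between -0.03 and 0.22 and did not pass. The 95% intervals of Cldn7 (-2.06 to 2.02) and Spp1 (-0.97 to 1.42) leave room for large changes in either direction. Cldn7 was not well above background in corn oil rat 1 and entered the test only through the BDCM group. Their part in the Prlr result was not tested, and in whole tissue more cells of a type and more RNA per cell cannot be told apart.

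Ghr, the growth hormone receptor gene, differed little between the groups and did not pass. The probe with the highest signal read 19.0, 24.4 and 21.2 in BDCM livers, against 25.8, 29.7 and 26.0 in corn oil livers. That probe showed no overlap between the groups, and its log2 fold change was -0.34 (SE 0.12, 95% interval -0.64 to -0.037, adjusted p = 0.14). The other 3 Ghr probes lay closer to 0, at -0.09, -0.14 and -0.09, and on 2 of them the groups overlapped. The intervals of these 3 all included 0, the widest reaching -0.39, so the data leave room for a small change in either direction.

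Jak2 encodes the kinase that both receptors share, and its probes gave slightly higher values in BDCM livers. The brighter probe read 0.857, 0.920 and 0.745 in BDCM rats and 0.662, 0.697 and 0.594 in corn oil rats. The groups did not overlap, and the log2 fold change was 0.37 (SE 0.12, adjusted p = 0.11). The dimmer probe, at 0.643, 0.697 and 0.563 in BDCM rats and 0.409, 0.465 and 0.400 in corn oil rats, was at 0.58 (SE 0.12) and passed when every probe was fitted on its own (adjusted p = 0.037). In that fit, the one plotted by probe, 3 of the members' 20 probes passed, against 8.52% of all 39027 probes. The Jak2 call ended in each fit with 5 animals (adjusted p from 0.060 to 0.12) and with slide as a block (adjusted p = 0.15).

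Stat5b, the main STAT of growth hormone action in liver, was read by 1 probe. Its relative signal was 0.482, 0.425 and 0.389 in BDCM livers, against 0.460, 0.549 and 0.560 in corn oil livers. The groups overlapped through BDCM rat 1 and corn oil rat 1, and the log2 fold change of -0.27 (SE 0.13, adjusted p = 0.22) had an interval from -0.58 to 0.032.

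**Figure D2:**
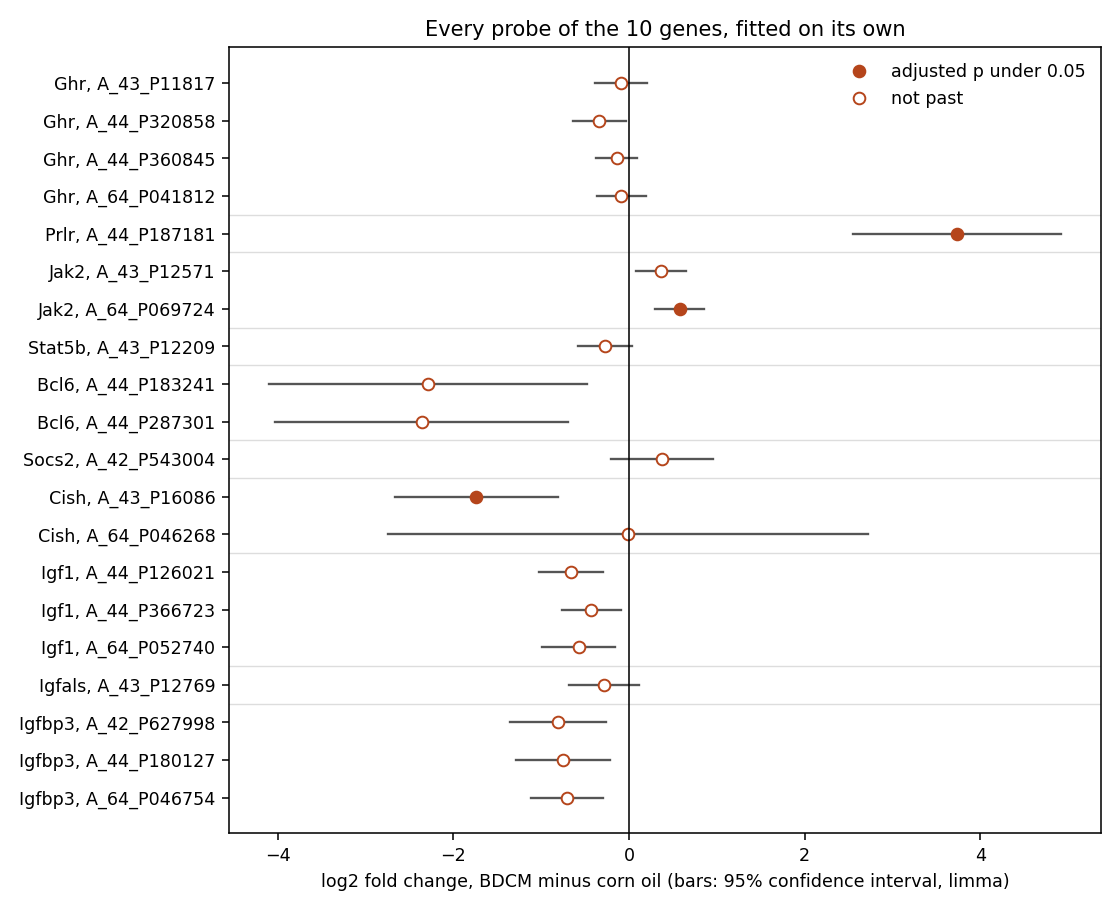
Log2 fold change (BDCM minus corn oil) of each of the 20 probes fitted on its own, with 95% confidence intervals; filled marks passed an adjusted p of 0.05. The 3 filled marks are Prlr, 1 Jak2 probe and 1 Cish probe, and the widest intervals belong to Cish and Bcl6.

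Bcl6 encodes a repressor that competes with STAT5 for DNA sites and is itself repressed by continuous growth hormone. Its signal was several times lower in BDCM livers on average, with a large spread between animals. The brighter probe read 1.39, 1.07 and 4.38 in BDCM rats 1, 2 and 3, and 6.71, 21.5 and 6.08 in corn oil rats 1, 2 and 3. BDCM rat 3 came close to the lower 2 corn oil animals, and corn oil rat 2 stood 3.55-fold above the lowest of its group. The dimmer probe read 0.0386, 0.0416 and 0.167 in BDCM rats against 0.194, 0.754 and 0.213 in corn oil rats. On the log2 scale its values in BDCM rats 1 and 2 were -4.70 and -4.59. Each array's faintest detected probe lay at or below -4.95, so these 2 values were near that limit and give the size of the difference poorly. The groups did not overlap on either probe, and on both BDCM rat 3 and corn oil rat 2 were the highest of their groups. The log2 fold change of the brighter probe was -2.36 (SE 0.69), which did not pass (adjusted p = 0.087), and the fold of BDCM over corn oil was 0.195 with an interval of 0.0612 to 0.620. Left-out animals moved it between -2.98 and -1.78 without a call. The only alternative in which it passed was spike-in scaling, at -1.88 (adjusted p = 0.040).

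The genes of the feedback inhibitors Socs2 and Cish, which damp the receptor after growth hormone or prolactin has acted, did not pass. Socs2 read 1.95, 2.21 and 2.41 in BDCM livers and 2.44, 1.41 and 1.38 in corn oil livers. Corn oil rat 1 lay above all 3 BDCM rats and the other 2 corn oil rats below them, which left a difference of 0.38 on the log2 scale (SE 0.24, 95% interval -0.20 to 0.96, adjusted p = 0.36). Without corn oil rat 1 it was 0.65 and did not pass (adjusted p = 0.056). On the spike-in scale it was 0.86 and passed (adjusted p = 0.029).

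The 2 Cish probes, both assigned to NM_031804, disagreed. The one that is brighter on average and so stood for the gene read 1.34, 0.682 and 0.318 in BDCM rats 1, 2 and 3, and 3.83, 0.219 and 0.358 in corn oil rats 1, 2 and 3. Its corn oil values spanned 17.5-fold, because rat 1 stood far above the other 2, and its SD about the group means was at the 99.8th percentile of all features. Its log2 fold change was -0.01 (SE 1.13, 95% interval -2.75 to 2.72), and it changed sign in 7 of 20 alternatives.

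The second Cish probe read 0.449, 0.263 and 0.206 in BDCM rats and 1.53, 0.794 and 0.743 in corn oil rats. Here the groups did not overlap, and within both groups rat 1 was again the highest. Fitted on its own, it was lower in BDCM livers, at -1.74 on the log2 scale (SE 0.38, adjusted p = 0.046). That call rests on all 6 animals, since it ended without any one of them (adjusted p from 0.052 to 0.14). The value was -1.10 on slide 1 alone and with slide as a block, which did not pass (adjusted p = 0.26). The call held with spike-in scaling, at -1.25 (adjusted p = 0.017), and with median centring, at -1.68 (adjusted p = 0.041). It also held with the replicate number as a block (adjusted p = 0.027). With the 2 probes averaged, Cish stood at -0.88 (adjusted p = 0.50). No direction can be given for Cish as a gene.

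**Figure D3:**
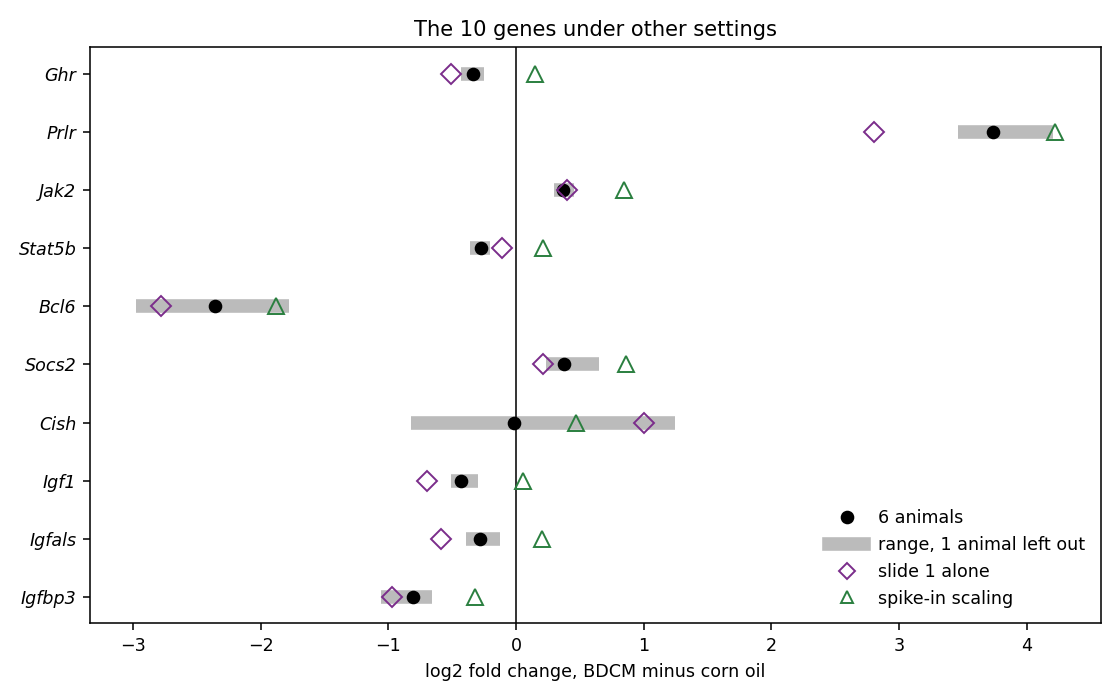
Log2 fold change (BDCM minus corn oil) of the 10 genes with 6 animals (black), with 1 animal left out (grey range), on slide 1 alone (diamonds) and with spike-in scaling (triangles). Prlr, Jak2 and Socs2 lie right of 0 and Bcl6 and Igfbp3 left of 0 in all of these, while Cish spans 0 and Ghr, Stat5b, Igf1 and Igfals cross it with spike-in scaling.

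The circulating IGF complex is a trio of IGF-I, its main carrier IGFBP-3 and the acid-labile subunit, and the genes of all 3 had negative log2 fold changes that did not pass. Igf1, the main endocrine product of growth hormone in liver, read 326, 422 and 439 in BDCM livers, against 568, 514 and 504 in corn oil livers. Every BDCM animal was below every corn oil animal. The log2 fold change was -0.43 (SE 0.14, adjusted p = 0.11) and the fold was 0.743 (95% interval 0.590 to 0.936). The other 2 Igf1 probes, both assigned to the transcript NM_001082479, stood at -0.57 (SE 0.17) and -0.66 (SE 0.15), also without overlap. The last came closest to the threshold (adjusted p = 0.0502). With slide as a block it was at -0.98 and passed (adjusted p = 0.041), and on slide 1 alone, at the same value, it did not (adjusted p = 0.10). On the spike-in scale the Igf1 value was 0.06 (adjusted p = 0.83), while the other 2 probes stayed below 0, at -0.089 and -0.18.

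Igfbp3 had the lowest values of the 3 relative to corn oil. Its brightest probe read 16.8, 19.5 and 20.5 in BDCM rats, and 40.2, 38.2 and 23.3 in corn oil rats. The groups did not overlap, though corn oil rat 3 lay near the BDCM rats, and the log2 fold change was -0.81 (SE 0.23, adjusted p = 0.078). Without corn oil rat 3 it was -1.06 and passed (adjusted p = 0.029), and with spike-in scaling it was -0.32 and did not (adjusted p = 0.28). The other 2 probes gave -0.75 (SE 0.22) and -0.70 (SE 0.17), with the same corn oil rat lowest in its group.

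In rat liver Igfbp3 is made largely by sinusoidal cells rather than hepatocytes. Of 6 measured endothelial markers 1 was lower, Lyve1, a hyaluronan receptor, at -0.56 (SE 0.11, adjusted p = 0.030), which passed in 0 of the 6 fits with 1 animal left out. Over all features 3.41% were called lower. All 6 markers were below 0, with a median of -0.18, and 2 had an unadjusted p under 0.05, where 27.5% of all features did. With spike-in scaling the median was 0.30. Their summed relative signal was 39.2 to 42.2 in BDCM livers and 46.7 to 50.1 in corn oil livers. Most of that signal came from Kdr, a VEGF receptor gene, which read 30.5 to 33.1 and 36.1 to 38.7 in these groups. The sums thus mainly restate Kdr, whose value of -0.24 (SE 0.08) missed the threshold in limma, with an adjusted p of 0.12. Pecam1, an endothelial adhesion molecule gene, was at -0.03 (SE 0.08). Of 8 macrophage markers none passed in limma and 1 had an unadjusted p under 0.05, beside 9.36% and 27.5% of all features. Their sums were 186 to 235 in BDCM livers and 189 to 242 in corn oil livers. Most of this came from C1qb and Clec4f. C1qb read 71.7 to 87.5 in BDCM livers and 64.6 to 76.4 in corn oil livers. Clec4f read 57.3 to 88.1 in BDCM livers and 73.0 to 105 in corn oil livers. The part of the endothelial and macrophage markers in the Igfbp3 values was not tested.

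Igfals, the gene of the acid-labile subunit, is made by hepatocytes. It read 8.33, 12.0 and 11.0 in BDCM livers, against 11.1, 13.6 and 13.1 in corn oil livers. The groups overlapped, with BDCM rat 1 the lowest animal, and the log2 fold change was -0.28 (SE 0.16, 95% interval -0.68 to 0.12, adjusted p = 0.32). Of 8 hepatocyte markers 1 was lower, Serpina1, a protease inhibitor of plasma, at -0.50 (SE 0.08, adjusted p = 0.023), which passed in 0 of the 6 fits with 1 animal left out. Of the 8, 7 were below 0 and 5 had an unadjusted p under 0.05, all 5 lower, with a median of -0.25. Over all features, 3.41% were called lower and 27.5% had an unadjusted p under 0.05 in either direction. Alb, the albumin gene, was at -0.25 (SE 0.10). On the spike-in scale the median was 0.23, Alb stood at 0.23, Serpina1 at -0.017 and Lyve1 at -0.073. The summed signal of the 8 hepatocyte markers was 3825 to 4294 in BDCM livers and 4500 to 5025 in corn oil livers. Their part in the Igf1 and Igfals values was not tested. Stellate cell and fibroblast markers had 0 of 8 past in limma and 1 with an unadjusted p under 0.05, beside 9.36% and 27.5% of all features. Their sums were 25.3 to 26.0 in BDCM livers and 24.6 to 31.4 in corn oil livers.

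The rest of the signalling chain was more even. Of 33 other JAK-STAT transducers, adaptors and inhibitors, 26 were measured and none passed in limma where 9.36% of all features did. Of the 26, 5 had an unadjusted p under 0.05, where 27.5% of all features did. Their median log2 fold change was 0.07 and the whole list lay between -0.28 and 0.41. Stat5a, the close relative of Stat5b, was at 0.07 (SE 0.09), and Socs3, an inhibitor induced by the interleukin-6 family, at 0.33 (SE 0.12, adjusted p = 0.15). With spike-in scaling 18 of the 26 were called, all higher, on a scale where 44.8% of all features were called and 97.6% of those calls were higher.

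Other IGF system genes, 12 measured of 19, also had none past in limma, and a median of -0.04. Of the 12, 3 had an unadjusted p under 0.05, where 27.5% of all features did. With spike-in scaling 3 were called higher and 1 lower, and in some other alternative fits 1 or 2 were called lower. Igfbp1, a carrier controlled by insulin, was at 0.29 (SE 0.15). Igfbp2, a carrier that is abundant in fetal liver, varied widely, with 6.46, 1.00 and 1.27 in BDCM rats and 3.75, 1.57 and 2.71 in corn oil rats. Stc1, a secreted inhibitor of IGFBP-cleaving proteases, was well above background in no BDCM liver and in all 3 corn oil livers. That makes it at least 3.26-fold lower, by the rule for dim arrays given with the processing. Its adjusted p of 0.051 did not pass and belongs to the fitted value, which rests on BDCM signals at background level. Stc1 entered the test only through the corn oil group.

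Among 14 measured class I cytokine receptors besides Ghr and Prlr, 1 was higher and 1 lower, beside 5.96% and 3.41% of all features. With spike-in scaling 7 were higher and 0 lower. Osmr, the oncostatin M receptor gene, was well above background in all 3 BDCM livers and in no corn oil liver, and so was at least 2.07-fold higher. Its adjusted p of 0.028 belongs to the fitted value, which rests on corn oil signals at background level. It entered the test only through the BDCM group, and among probes well above background on all arrays 0 receptors of the list were higher and 1 was lower. Il6r, the interleukin-6 receptor gene, read 4.82, 4.37 and 5.14 in BDCM livers and 7.22, 9.79 and 7.39 in corn oil livers, a difference of -0.76 on the log2 scale (SE 0.15, adjusted p = 0.032). On the spike-in scale it was at -0.27 and did not pass. With 1 animal left out the list had 0 or 1 call, and with slide as a block 0. Of the 6 such fits Il6r passed in 0 and Osmr in 1. The shared chain gene Il6st and the leptin receptor gene Lepr were at -0.14 (SE 0.14) and -0.06 (SE 0.33).

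Liver genes whose sex difference is set by the growth hormone pattern in rats are described next, from lists made with earlier results of these data known, so that their direction is no independent evidence. Of 12 male-predominant genes, all measured, 7 had lower signal in BDCM livers, 0 higher, and 5 did not pass, beside 3.41% of all features called lower. Their median log2 fold change was -1.35, and -0.86 with spike-in scaling. All 12 were below 0 on the array scale, the nearest to 0 being Cyp2a2 at -0.19 (SE 0.10). With spike-in scaling Cyp2a2 was at 0.29 and Cyp4a2, a fatty acid hydroxylase gene at -0.41 (SE 0.15) on the array scale, was at 0.076. The count was 3 to 7 when 1 animal was left out, lowest without corn oil rat 2, 6 with slide as a block and 4 on slide 1 alone.

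Cyp2c11, a P450 found in adult male livers, read 21.8, 61.5 and 47.6 in BDCM rats 1, 2 and 3, and 348, 324 and 307 in corn oil rats 1, 2 and 3, with BDCM rat 1 the lowest animal. Mup4, a major urinary protein gene, also had its lowest signal in BDCM rat 1, at 28.5, 65.3 and 76.7 in BDCM livers, against 357, 409 and 342 in corn oil livers. Car3, a carbonic anhydrase gene, had the largest change of the list with a log2 difference of -3.63 (SE 0.27, adjusted p = 0.0037). It passed without each animal in turn. Cyp2c11 lost its call without corn oil rat 2 (adjusted p = 0.053). Mup4 lost its call without BDCM rat 2 or corn oil rat 2 (adjusted p up to 0.060).

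Of 10 measured female-predominant genes, 2 were higher, 1 was lower and 7 did not pass, beside 5.96% of all features higher and 3.41% lower, with a median of 0.60. With spike-in scaling 6 were higher and 1 was lower, with a median of 1.08. Sult2a6, a bile acid and steroid sulfotransferase gene, read 38.9, 135 and 75.5 in BDCM livers, against 21.0, 7.41 and 5.29 in corn oil livers, a difference of 2.97 on the log2 scale (SE 0.64, adjusted p = 0.041). Srd5a1, a steroid 5-alpha-reductase gene, was at 0.76 (SE 0.14, adjusted p = 0.030). Abcg8, part of a sterol exporter, was lower at -1.71 (SE 0.34, adjusted p = 0.034). Cyp2c12, the female-specific counterpart of Cyp2c11, read 37.3, 51.4 and 58.8 in BDCM livers and 27.2, 12.4 and 24.1 in corn oil livers, and at 1.26 (SE 0.33) did not pass (adjusted p = 0.066). The count of 3 fell to between 0 and 2 when 1 animal was left out, and to 0 with slide as a block or without the filter on dim probes.

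**Figure D4:**
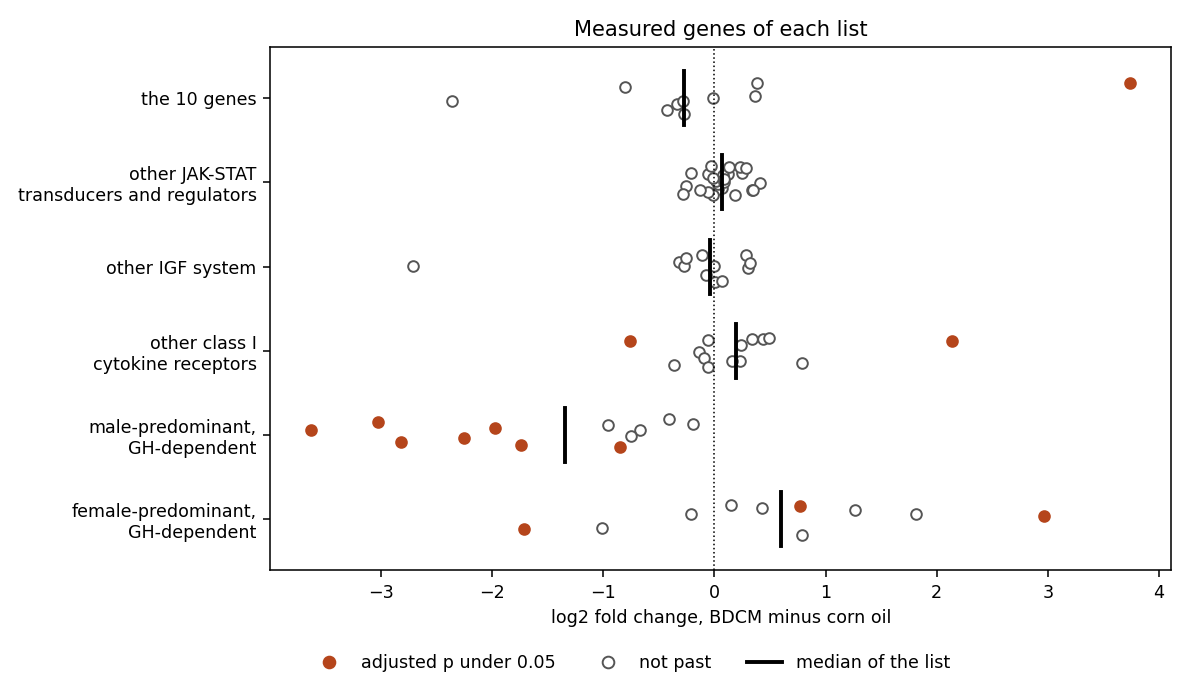
Log2 fold change (BDCM minus corn oil) of the measured genes of each list, spread vertically only to keep marks apart; filled marks passed an adjusted p of 0.05 and bars are list medians. The male-predominant genes lie left of 0, while the other JAK-STAT genes are centred near 0; the marks of Osmr at 2.14 and Stc1 at -2.71 are fitted values that rest on signals near background in 1 group.

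The gene whose values over the 6 arrays were nearest to those of Prlr was Gpx2, a glutathione peroxidase, at a root mean square distance of 0.57 on the log2 scale among 10841 named genes measured in both groups. Gpx2 read 3.99, 12.2 and 4.40 in BDCM rats and 0.827, 0.517 and 0.177 in corn oil rats. Sult2a6 was the next nearest, at 0.62. In all 3 genes BDCM rat 1 was the lowest BDCM animal and corn oil rat 1 the highest corn oil animal. Distances were taken after subtracting each gene's corn oil mean, so they reflect the size of the group difference as well as the order of the animals.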

How the data were processed

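Liver RNA of 6 rats was hybridised to 1-colour Agilent arrays and, per the submitters' processing notes, read with Feature Extraction 10.7. The files the authors deposited for each array give the linear intensity of each spot, background-subtracted and not scaled between arrays, per the file headers. Values in the deposited series table are a ratio of signal to the array's 75th percentile, as worked out from the numbers, and served as an alternative. The array design names build rn4, per the file headers, and no probe sequence was used here.

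Outlier spots (27 probes) were left out. Log2 processed signals were centred on each array's 75th percentile over 61657 probes. Probes well above background on all 3 arrays of a group were kept, and the brightest probe stood for a gene (28995 features). Names came from unversioned RefSeq accessions matched to GRCr8 (27460 probes, 44.5%). BDCM was set against corn oil with limma 3.58.1 (R 4.3.3; lmFit and eBayes, two-sided); p-values were adjusted by Benjamini-Hochberg over all features, threshold 0.05, and a second fit took every probe on its own. The model was tested on simulated data with independent noise on each array and no slide effect, so that test does not cover the slides. An "at least" fold sets the bright group's mean against the mean of the dim group, with each dim array given no less than its faintest detected probe.

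All members and all their probes are named; of the other lists, at most 4 called members, by size of change, members singled out by a count, and some chosen after their values were seen (Stat5a, Socs3, Igfbp1, Igfbp2, Il6st, Lepr, Cyp2a2, Cyp4a2, Cyp2c12, Stc1). C1qb and Clec4f are named for their share of a summed signal. For Prlr the 2 named genes nearest over the 6 arrays are given. Members, lists and tests were chosen with earlier results of these data known. The files hold median and not mean spot signals, so the normexp alternative used median spot and background signals. Alternatives were 14 settings and leaving out each of 6 animals, plus, for single probes, some chosen after seeing the data.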

Additional observations from a re-analysis of the deposited data

How the results depend on the processing

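Over all features, 2715 calls became 12996 with spike-in scaling, 609 without the filter on dim probes, 350 with slide as a fixed block, 120 on slide 1 alone and 353 with the replicate number as a block, and between 335 and 1232 when 1 animal was left out, lowest without BDCM rat 2. Of the 10 signalling genes, 1 passed; 4 did with spike-in scaling (Prlr, Jak2 and Socs2 higher, Bcl6 lower), 0 with slide as a fixed block, 0 on slide 1 alone, 0 with the replicate block and between 0 and 2 when 1 animal was left out. With the replicate block Prlr had an adjusted p of 0.065, and 2 rather than 7 of the male-predominant and 0 rather than 3 of the female-predominant genes passed; same-numbered animals share only a number, their deviations from the group means correlating at 0.09, 0.02 and 0.12. Values that changed sign with spike-in scaling were Ghr at 0.15, Stat5b at 0.21, Cish at 0.47, Igf1 at 0.056 and Igfals at 0.20, none of them past the threshold. These belong to the probe that stands for each gene, and the other 2 Igf1 probes and the second Cish probe stayed below 0. Cish, at -0.01, was also at 0.044 with median centring, 1.01 with slide as a fixed block and on slide 1 alone, 0.090 with slide as a random block, and between -0.82 and 1.24 when 1 animal was left out. The cause of these changes was not tested. Normexp, quantile normalization, median centring, the stricter filter, the mean over probes, the common floor, trend and robust options, the value table and slide as a random block left Prlr as the 1 gene past the threshold. With 3 arrays a group and 1 treated array on the corn oil slide, slide and treatment cannot be fully told apart.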

Other observations

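Corn oil animals differed among themselves in several of these genes. Corn oil rat 1 had the highest Cish signal on both probes (3.83 and 1.53), the highest Socs2 (2.44) and the highest Prlr (0.390) of its group. Corn oil rat 2 had the highest Bcl6 on both probes (21.5 and 0.754), the lowest Cish on the brighter probe (0.219) and the lowest signal of Onecut1, a growth hormone-responsive hepatic transcription factor gene. Onecut1 read 33.8, 27.1 and 25.2 in BDCM rats 1, 2 and 3, and 43.6, 4.27 and 24.2 in corn oil rats 1, 2 and 3, a difference of 0.78 on the log2 scale that did not pass in limma (SE 0.81, adjusted p = 0.58). These genes were picked after their values were seen.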
